A study of Mus musculus with 12 samples.

Results

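The 10 genes described here mark or equip mast cells: the granule proteases Mcpt4, Cma1, Tpsb2, Tpsab1 and Cpa3, the surface receptors Kit, Fcer1a and Ms4a2, the histamine-forming enzyme Hdc and the transcription factor Gata2. They were taken by symbol from the 36400 genes of the deposited skin table, and all 10 were present and entered the test. Dorsal skin of 12 female BALB/c mice, bought at 6 weeks of age, was collected on day 30 for RNA sequencing, with 3 mice sequenced from each of 4 larger treatment groups. Control mice received the vehicle, acetone with olive oil, and neither DNCB nor MSCs. Mice of the DNCB group were sensitized with 1% 2,4-dinitrochlorobenzene, a hapten that causes dermatitis resembling atopic dermatitis, and then challenged with 0.5% DNCB. The scMSC group received the same DNCB schedule and 4 injections of 2000000 human umbilical cord mesenchymal stem cells (MSCs), each in 100 µL under the skin, between day 13 and day 25. In the scivMSC group each of the 4 injections was split, 50 µL going under the skin and 50 µL by the tail vein. No group received DNCB with an injection free of cells, so an effect of MSCs and an effect of the injection itself cannot be told apart.

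Mast cells are tissue-resident immune cells that store histamine and proteases in granules and release them when IgE bound to their surface is cross-linked. They develop in the skin under stem cell factor acting on the receptor Kit, and those of mouse skin are of the connective tissue type, which stores chymases, tryptases and carboxypeptidase together. In atopic dermatitis they are known as a source of histamine and other itch mediators. Histamine is made by histidine decarboxylase, the product of Hdc, an enzyme that neutrophils also make. The comparison of the proteases with Hdc therefore asked whether genes held by mast cells and a gene shared with neutrophils followed the same pattern across the groups.

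All genes lie on the mouse genome build GRCm38. Mcpt4 (ENSMUSG00000061068, chr14:56059629-56062313) and Cma1 (ENSMUSG00000022225, chr14:55941451-55944675) both lie on the minus strand of chromosome 14, and Tpsb2 (ENSMUSG00000033825, chr17:25366305-25369098) and Tpsab1 (ENSMUSG00000024173, chr17:25343245-25345562) lie close together on opposite strands of chromosome 17. The tryptase genes Tpsb2 and Tpsab1 are related in sequence, and how the authors' counting divided reads between such paralogs is not given in the sources used here, so their separate values are less certain than their sum. Cpa3 (ENSMUSG00000001865, chr3:20215620-20242181) contains the microRNA gene Mir7007 on its own strand, and no other member overlaps an annotated gene on either strand.

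RefSeq promoter windows were at hand for 8 of the 10 members, all but Tpsb2 and Tpsab1. Each window of 300 bases, 250 before the transcription start and 50 from it, was searched on both strands for the GATA motifs AGATAA with its variant form AGATAG and likewise TGATAA with its variant form TGATAG, the letters bound by GATA factors such as GATA2. A match was found in 6 of 8 members, where 29.8% of 32851 RefSeq mouse promoters of the same length held one. The 250 bases before the start are shown for 3 proteases, for the IgE receptor alpha chain gene Fcer1a and for Hdc, 5′ to 3′ on the strand of the gene, because these genes carry the comparisons that follow. Capitals mark the GATA matches, which stand in Cma1 and Fcer1a in their reverse complement.
Mcpt4, chr14:56062311-56062560, minus strand: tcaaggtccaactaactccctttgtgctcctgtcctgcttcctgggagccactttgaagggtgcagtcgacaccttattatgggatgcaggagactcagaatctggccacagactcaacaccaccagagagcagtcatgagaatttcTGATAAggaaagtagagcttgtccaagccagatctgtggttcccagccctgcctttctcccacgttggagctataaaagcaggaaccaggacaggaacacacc
Cma1, chr14:55944676-55944925, minus strand: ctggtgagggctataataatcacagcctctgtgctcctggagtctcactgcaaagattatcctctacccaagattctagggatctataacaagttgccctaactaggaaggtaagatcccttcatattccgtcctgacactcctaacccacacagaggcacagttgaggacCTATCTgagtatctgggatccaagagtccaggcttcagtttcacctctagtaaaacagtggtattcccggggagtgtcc
Cpa3, chr3:20242182-20242431, minus strand: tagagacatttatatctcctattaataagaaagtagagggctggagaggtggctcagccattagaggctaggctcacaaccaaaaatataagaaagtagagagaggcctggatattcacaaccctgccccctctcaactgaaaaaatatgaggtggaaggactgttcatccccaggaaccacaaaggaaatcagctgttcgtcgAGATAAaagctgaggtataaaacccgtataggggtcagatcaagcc
Fcer1a, chr1:173227230-173227479, minus strand: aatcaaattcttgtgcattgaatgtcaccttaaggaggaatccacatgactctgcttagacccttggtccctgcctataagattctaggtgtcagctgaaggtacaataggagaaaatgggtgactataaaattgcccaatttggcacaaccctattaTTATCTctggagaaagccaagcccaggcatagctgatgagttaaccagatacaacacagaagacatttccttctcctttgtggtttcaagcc
Hdc, chr2:126618679-126618928, minus strand: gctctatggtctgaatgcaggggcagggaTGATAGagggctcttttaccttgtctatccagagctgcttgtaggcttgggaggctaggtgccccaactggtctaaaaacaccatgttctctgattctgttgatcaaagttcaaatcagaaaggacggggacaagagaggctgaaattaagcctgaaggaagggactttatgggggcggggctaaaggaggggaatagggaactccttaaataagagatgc

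The match lay 103 bases before the start in Mcpt4, 79 in Cma1, 46 in Cpa3, 92 in Fcer1a and 221 in Hdc. Ms4a2 held 3 matches, at 224, 37 and 11 bases before the start, and the windows of Kit and Gata2 held none. The E-box CANNTG was present in at least 1 window of 6 of 8 members, against 72.3% of all promoters, and none of the GATA matches overlapped one. Kit and Gata2 had 2 windows each, and Gata2 held the E-box in only 1 of them. Of the E-box forms recognised by the mast cell and melanocyte factor MITF, CATGTG occurred in Fcer1a alone, against 14.2% of all promoters, and CACGTG in none of the 8, against 7.15%. A match is a description of the letters and not evidence of binding.

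Levels are given as FPKM, read fragments scaled for gene length and for the size of the library, a scale on which genes of different length can be compared within a library. Differences between groups are log2 fold changes from edgeR's quasi-likelihood test on the estimated counts, with the standard error (SE), the 95% interval and the p-value adjusted by Benjamini and Hochberg over all 21890 genes tested. A gene was called changed at an adjusted p under 0.05 and a log2 fold change over 1 in size. Libraries held 63877153 to 75134001 estimated counts, about 4 of which correspond to 1 fragment. The p-values measure the spread between these 12 mice only. Replicate 3 of the scivMSC group stood apart, since its correlations with the other libraries of its group were 0.928 and 0.934 on log2 FPKM, against 0.941 to 0.957 for pairs within the control, DNCB and scMSC groups. Its fibroblast genes summed to 88.8 FPKM and its macrophage genes to 48.5 FPKM, the lowest sums of all 12 libraries. Tests of the 10 genes with the scivMSC group are given with and without this library, or with a range over fits leaving out 1 library.

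Keratinocyte genes were present in every library, as fits the labelled skin. In bulk tissue, fewer mast cells and less RNA per mast cell cannot be told apart. The mucosal mast cell protease gene Mcpt1 stayed between 0 and 0.321 FPKM in all 12 libraries. The other skin mast cell genes measured were 18, of which 15 were tested, and they are described after the members.

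Mcpt4, a chymase of connective tissue mast cells that acts as the counterpart of human chymase, was the highest of the 10 genes in the control mean. Its level was 14.3, 7.76 and 10.1 FPKM in the control mice and 28.3, 33.9 and 27.7 FPKM in the DNCB mice. In the scMSC mice it was 35.6, 15.8 and 16.9 FPKM, and in the scivMSC mice 31.4, 31.8 and 4.33 FPKM. The control and DNCB libraries did not overlap, while the MSC treatment libraries ran from 4.33 FPKM, below every control library, to 35.6 FPKM, above every DNCB library. Cma1, the other chymase, showed the same arrangement, with 5.84 to 10.1 FPKM in control, 21.3 to 26.2 FPKM in DNCB, 10.9 to 29.5 FPKM in scMSC and 4.62 to 28.0 FPKM in scivMSC.

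The tryptase Tpsb2 was measured at 6.35, 3.99 and 6.74 FPKM in control and at 23.1, 28.7 and 23.0 FPKM in DNCB. It reached 29.7, 13.1 and 13.8 FPKM in scMSC and 27.9, 28.5 and 4.00 FPKM in scivMSC. Again scMSC replicate 1 and scivMSC replicates 1 and 2 lay in or above the DNCB range, and scivMSC replicate 3 lay at the control level. The second tryptase, Tpsab1, was far lower in control, at 0.776, 0.536 and 0.115 FPKM, and was 10.3, 11.6 and 9.19 FPKM in DNCB. Its levels in scMSC (5.04, 2.16 and 2.23 FPKM) and in scivMSC (5.02, 6.92 and 0.811 FPKM) were all above the control libraries and all below the DNCB libraries. Cpa3, the mast cell carboxypeptidase, ranged over 2.91 to 5.09 FPKM in control, 13.3 to 14.9 FPKM in DNCB, 6.0 to 15.7 FPKM in scMSC and 1.53 to 15.9 FPKM in scivMSC.

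**Figure D1:**
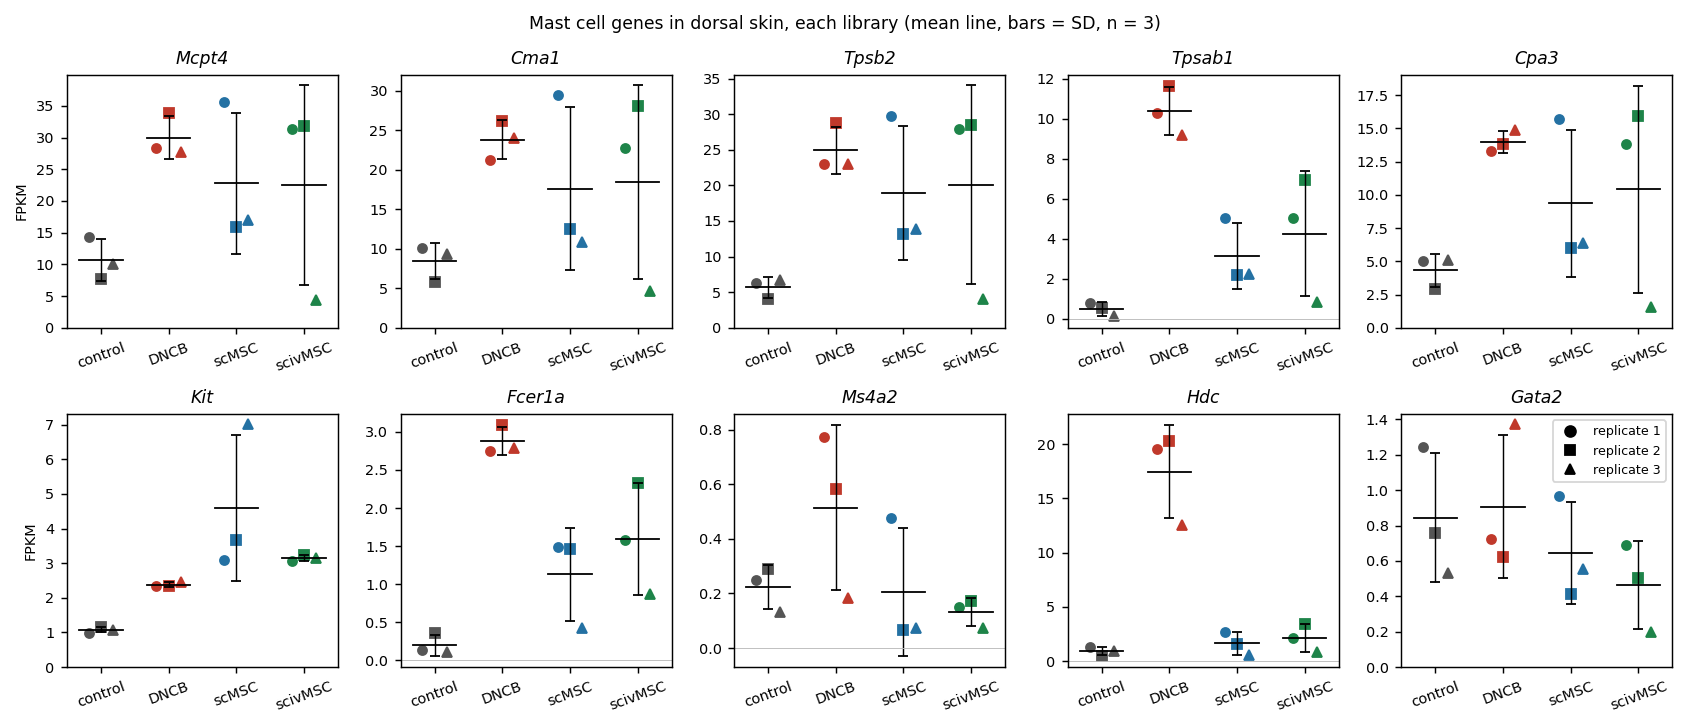
FPKM of each of the 10 mast cell genes (vertical axes, linear, scaled per gene) in the 12 libraries by group, with points for libraries, marker shapes for replicate numbers, a line for the mean and bars for the SD of 3 libraries. For all 5 proteases scMSC replicate 1 is the highest and scivMSC replicate 3 the lowest library of its group (Mcpt4 35.6 and 4.33 FPKM), the MSC treatment libraries of Tpsab1 all lie between control and DNCB, and Hdc is at 12.5 to 20.3 FPKM in DNCB and at most 3.46 FPKM elsewhere.

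Kit, the stem cell factor receptor of mast cells and also of melanocytes, was ordered differently. It measured 0.995, 1.15 and 1.08 FPKM in control, 2.34, 2.33 and 2.46 FPKM in DNCB, 3.10, 3.67 and 7.01 FPKM in scMSC and 3.06, 3.25 and 3.15 FPKM in scivMSC. Every library of the MSC treatment groups exceeded every DNCB library, and scivMSC replicate 3 was not low for this gene. Fcer1a, the IgE-binding alpha chain of the high-affinity receptor, was 0.131, 0.356 and 0.108 FPKM in control and 2.75, 3.09 and 2.79 FPKM in DNCB. In the MSC treatment groups it lay between those ranges, at 1.49, 1.47 and 0.424 FPKM in scMSC and 1.58, 2.33 and 0.865 FPKM in scivMSC. Control libraries held only 8 to 27 estimated counts of Fcer1a, so its fold changes against control rest on few fragments.

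Ms4a2, the beta chain of the same receptor, was low throughout, with 0.248, 0.289 and 0.132 FPKM in control, 0.775, 0.584 and 0.183 FPKM in DNCB, 0.475, 0.0669 and 0.0751 FPKM in scMSC and 0.15, 0.172 and 0.0742 FPKM in scivMSC. Its libraries overlapped between all groups except DNCB and scivMSC, and it was read from 16 to 165 estimated counts. Gata2, a transcription factor of mast cells, basophils and endothelium, was 0.530 to 1.25 FPKM in control, 0.624 to 1.37 FPKM in DNCB, 0.415 to 0.967 FPKM in scMSC and 0.196 to 0.691 FPKM in scivMSC. Its 4 group ranges overlapped with one another.

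Hdc was measured at 1.28, 0.525 and 0.915 FPKM in control and at 19.6, 20.3 and 12.5 FPKM in DNCB. Under MSC treatment it was 2.71, 1.58 and 0.619 FPKM in scMSC and 2.14, 3.46 and 0.876 FPKM in scivMSC. The lowest DNCB library was above every library of the other 3 groups, and the control and MSC treatment libraries overlapped.

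In DNCB against control 4 of the 10 genes rose past both limits, namely Tpsab1, Hdc, Fcer1a and Tpsb2, where 6.59% of all tested genes were called higher and 14.2% in either direction. Tpsab1 rose by a log2 fold change of 4.22 (SE 0.81, interval 2.43 to 6.02, adjusted p = 0.00414 in edgeR's test), and Hdc by 4.08 (SE 0.61, interval 2.73 to 5.43, adjusted p = 0.00137). Fcer1a rose by 3.60 (SE 0.64, adjusted p = 0.00283) and Tpsb2 by 1.95 (SE 0.57, adjusted p = 0.0282). Kit passed the adjusted p with a smaller change, 0.95 (SE 0.25, adjusted p = 0.0172), and 25.3% of all genes passed on the adjusted p alone. The remaining proteases had log2 fold changes of 1.51 (Cpa3, adjusted p = 0.112), 1.32 (Cma1, adjusted p = 0.1) and 1.3 (Mcpt4, adjusted p = 0.123), each with a 95% interval above 0 before adjustment.

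For Ms4a2 the change was 1.00 (interval −0.72 to 2.71, adjusted p = 0.391) and for Gata2 −0.10 (interval −1.21 to 1.01, adjusted p = 0.914), a sign that turned under library size alone. Libraries did not overlap for 8 of the 10 genes, with DNCB higher in all 8, and the same held for 31.7% of all tested genes. The median log2 fold change was 1.41 over the members and 0.02 over all tested genes. Library size alone moved the latter to 0.20 and the genes called over the whole table from 1442 higher and 1656 lower to 2020 higher and 1301 lower, and Kit (1.14) was then called too. Without scivMSC replicate 3, which is in neither group but widens the shared spread, 7 members were called, since Cpa3 (1.47, adjusted p = 0.0116), Mcpt4 (1.26, adjusted p = 0.014) and Cma1 (1.27, adjusted p = 0.0224) were added. The call of Tpsb2 was lost when any single control or DNCB library was left out, with adjusted p-values of 0.0558 to 0.105.

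Between the DNCB and scMSC groups 1 of the 10 genes was called, where 3.84% of all genes were called higher in DNCB and 8.5% in either direction. Hdc was higher in DNCB by 3.4 on the log2 scale (SE 0.59, interval 2.09 to 4.71, adjusted p = 0.00498). Kit was the only member lower in DNCB, with a log2 fold change of −0.97 (SE 0.25, interval −1.52 to −0.43, adjusted p = 0.0268), just inside the fold limit, and 12.7% of all genes passed on the adjusted p alone. The proteases did not pass the test against scMSC. Their log2 fold changes were 0.39 in Mcpt4 (interval −0.85 to 1.62, adjusted p = 0.746), 0.43 in Cma1 (interval −0.74 to 1.60), 0.39 in Tpsb2 (interval −0.82 to 1.60), 0.57 in Cpa3 (interval −0.81 to 1.96) and 1.71 in Tpsab1 (interval 0.11 to 3.32, adjusted p = 0.166).

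Except in Tpsab1, these intervals run from a difference against scMSC of the opposite sign to one of more than a log2 unit, so similar levels were not shown. With these 6 libraries fitted alone, Tpsab1 was also called (1.73, adjusted p = 0.0241). Fcer1a differed by 1.32 (adjusted p = 0.178), Ms4a2 by 1.33 (adjusted p = 0.334) and Gata2 by 0.48 (adjusted p = 0.632). Tpsab1, Fcer1a and Hdc were higher in all DNCB than in all scMSC libraries and Kit lower, against 17.1% of all genes with DNCB higher and 16.0% with DNCB lower. The result for Ms4a2 turned on 1 library: without scMSC replicate 1 its difference was 2.77 with an adjusted p of 0.0352, and Kit then passed the fold limit at −1.21 (adjusted p = 0.00589). Kit also passed it without scMSC replicate 2, at −1.05 (adjusted p = 0.0435). Without scMSC replicate 3, the library highest in Kit, that difference was −0.55 (adjusted p = 0.0471). Kit did not pass the adjusted p without DNCB replicate 1, 2 or 3 (0.0857, 0.0838 and 0.0737), with the 6 libraries fitted alone (0.0922) or in limma with 0.1 or 1 FPKM added (0.0521 and 0.0546).

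Against the scivMSC group Hdc was again the 1 member called, where 2.33% of all genes were called higher in DNCB and 5.46% in either direction. The log2 fold change was 3.03 (SE 0.58, interval 1.74 to 4.32, adjusted p = 0.0134). It was 2.66 (adjusted p = 0.0436) without scivMSC replicate 3, and without scivMSC replicate 1 it stayed at 3.02 with an adjusted p of 0.0583. The protease differences were 0.44 in Mcpt4, 0.39 in Cma1, 0.33 in Tpsb2, 0.45 in Cpa3 and 1.31 in Tpsab1, and none passed the test (adjusted p of 0.319 for Tpsab1 and 0.718 for Mcpt4).

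Without scivMSC replicate 3 those of Mcpt4, Cma1, Tpsb2 and Cpa3 turned to −0.058, −0.073, −0.16 and −0.074, so the small excess of DNCB in these 4 genes rested on that library. Tpsab1 kept its sign at 0.82. Ms4a2 differed by 1.93 (adjusted p = 0.176), Gata2 by 0.97 (adjusted p = 0.296), Fcer1a by 0.86 (adjusted p = 0.419) and Kit by −0.42 (adjusted p = 0.354). These were 1.67, 0.61, 0.57 and −0.39 without scivMSC replicate 3, and none passed the test. The DNCB libraries were all higher for 4 members, Tpsab1, Fcer1a, Ms4a2 and Hdc, and all lower for Kit, against 16.3% and 16.4% of all genes.

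**Figure D2:**
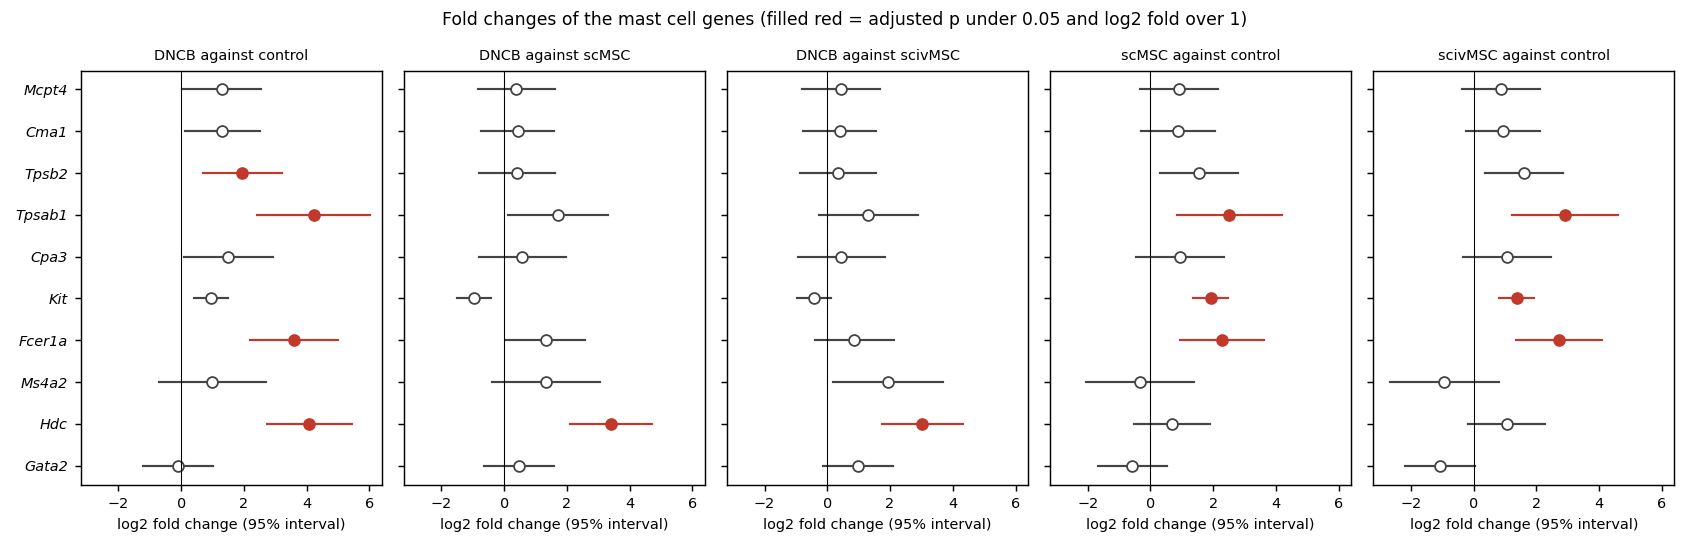
Log2 fold change (horizontal axes) of each mast cell gene in 5 comparisons, with the 95% interval as a bar and filled points for genes with an adjusted p under 0.05 and a log2 fold change over 1. Hdc is filled in the 3 comparisons with DNCB (4.08, 3.4 and 3.03), and Kit, Fcer1a and Tpsab1 are filled in both comparisons of an MSC treatment group with control.

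Compared with control, 3 members were called in the scMSC group, all higher, where 5.12% of all genes were called higher and 9.32% in either direction. Kit was higher by 1.93 (SE 0.25, interval 1.37 to 2.49, adjusted p = 0.00126), Fcer1a by 2.28 (SE 0.61, adjusted p = 0.0266) and Tpsab1 by 2.51 (SE 0.76, adjusted p = 0.0429). Hdc differed from control by 0.68 (interval −0.53 to 1.89, adjusted p = 0.433). The other proteases gave 0.91 (Mcpt4), 0.89 (Cma1), 1.56 (Tpsb2, adjusted p = 0.0794) and 0.94 (Cpa3). Ms4a2 differed by −0.33 (adjusted p = 0.818) and Gata2 by −0.58 (adjusted p = 0.475), both lower in scMSC. Although few were called, 7 of the 10 genes were higher in every scMSC than in every control library, as were 25.9% of all genes.

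The call of Kit against control held in each of the 12 fits that left out 1 library. That of Fcer1a was lost without control replicate 1, control replicate 3, scMSC replicate 1 or scMSC replicate 2. Tpsab1 kept its call only in the fits without scivMSC replicate 2 or scivMSC replicate 3. With these 6 libraries fitted alone, Kit and Tpsb2 (1.56, adjusted p = 0.0408) were called and Fcer1a and Tpsab1 were not. Tpsb2 was also called by edgeR without scivMSC replicate 3 (1.51, adjusted p = 0.00747) and by DESeq2 (1.53, adjusted p = 0.0217).

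In the scivMSC group the same 3 genes were called against control, Kit at 1.37 (SE 0.25, adjusted p = 0.00781), Fcer1a at 2.74 (SE 0.62, adjusted p = 0.0174) and Tpsab1 at 2.91 (SE 0.77, adjusted p = 0.0317), where 3.5% of all genes were called higher and 6.85% in either direction. These were also the 3 members whose scivMSC libraries all lay above control, as was so for 24.3% of all genes. Hdc differed by 1.05 (interval −0.16 to 2.27, adjusted p = 0.249) and Tpsb2 by 1.62 (adjusted p = 0.086). DESeq2 called Tpsb2 as well, at 1.58 (adjusted p = 0.0208). The differences were 0.86 in Mcpt4, 0.93 in Cma1 and 1.06 in Cpa3 (adjusted p of 0.363, 0.299 and 0.316). Lower in scivMSC were Ms4a2 at −0.93 (adjusted p = 0.495) and Gata2 at −1.07 (adjusted p = 0.201). Leaving out 1 library gave −1.25 to −0.71 in Ms4a2 and −1.46 to −0.69 in Gata2, and neither passed the test. Without scivMSC replicate 3 the count called was 7, with Mcpt4 at 1.32, Cma1 at 1.35, Tpsb2 at 2.07 and Cpa3 at 1.54 added (adjusted p of 0.0291, 0.0416, 0.00433 and 0.0239), while Kit stood at 1.31, Fcer1a at 2.99 and Tpsab1 at 3.37, and Hdc at 1.38 (adjusted p = 0.123) was not called. Kit alone was called without control replicate 1, control replicate 3 or scivMSC replicate 2, and Tpsab1 alone lost its call without control replicate 2 or scivMSC replicate 1. Both MSC comparisons use the same control and the same DNCB libraries, so they are not independent of each other.

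Between scMSC and scivMSC 0 of the 10 genes were called by edgeR's test, DESeq2 or limma, where 0.00457% of all genes were called by edgeR. Kit was the 1 member with an unadjusted p under 0.05 in edgeR's test, at a log2 fold change of 0.56 (adjusted p = 0.661), and 1642 genes of the whole table were. The log2 fold changes of the other 9 genes ran from −0.46 (Fcer1a) to 0.60 (Ms4a2), and the libraries of all 10 genes overlapped, whereas those of 10.8% of all genes did not. Without scivMSC replicate 3 the 10 values ran from −0.91 (Tpsab1) to 0.56 (Kit) and 0 were called by edgeR.

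Within a library, Hdc stood higher relative to the summed proteases in DNCB than in the other groups. The 5 protease FPKM summed to 36.6, 21.04 and 31.4 in control, 96.2, 114 and 98.7 in DNCB, 116, 49.6 and 50.3 in scMSC and 101, 111 and 15.3 in scivMSC. The level of Hdc divided by that sum was 0.0250 to 0.0350 in control and 0.127 to 0.203 in DNCB. It was 0.0123 to 0.0318 in scMSC and 0.0212 to 0.0573 in scivMSC, so the DNCB libraries were the only ones above 0.1.

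The same was seen protease by protease, as the difference in log2 ratio of Hdc to each gene, with 0.1 added to both FPKM values. Relative to Mcpt4, Hdc was higher in DNCB by 2.65 than in control, by 3.03 than in scMSC and by 2.25 than in scivMSC. Relative to Cma1 the differences were 2.65, 2.94 and 2.40, relative to Tpsb2 2.03, 3.02 and 2.37, and relative to Cpa3 2.46, 2.80 and 2.14. Tpsab1 was the exception, since the log2 ratio of Hdc to it differed by −0.24 between DNCB and control (two-sided exact permutation p = 0.9, adjusted p = 0.9), by 1.72 between DNCB and scMSC and by 1.41 between DNCB and scivMSC. Control replicate 3 held only 17 estimated counts of Tpsab1, and without that library the difference of −0.24 was 0.40. In 14 of the 15 comparisons the libraries did not overlap. Each of these 14 had a two-sided exact permutation p of 0.1 (0.107 adjusted over the 15), which is the smallest that 3 against 3 libraries allow, so none could pass 0.05. Without scivMSC replicate 3 the differences between DNCB and scivMSC were 2.69 (Mcpt4, Cma1 and Cpa3), 2.79 (Tpsb2) and 1.81 (Tpsab1).

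Cma1 and Cpa3 stood in similar proportions to Mcpt4 in all groups. The ratio of Cma1 to Mcpt4 was 0.708 to 0.935 in control, 0.752 to 0.868 in DNCB, 0.644 to 0.830 in scMSC and 0.725 to 1.07 in scivMSC, and that of Cpa3 to Mcpt4 was 0.351 to 0.506, 0.407 to 0.536, 0.375 to 0.442 and 0.354 to 0.502. These ranges overlapped between all groups although Mcpt4 itself ranged from 4.33 to 35.6 FPKM. Tpsb2 stood at 0.444 to 0.670 of Mcpt4 in control and at 0.815 to 0.925 in the other groups. The ratio of Tpsab1 to Tpsb2, which was chosen after its values were seen, was 0.0171 to 0.135 in control, 0.400 to 0.447 in DNCB, 0.161 to 0.169 in scMSC and 0.180 to 0.243 in scivMSC. The lowest control ratio, 0.0171, was that of replicate 3, which held 17 estimated counts of Tpsab1. Tpsab1 thus took its largest share of the tryptases in DNCB, with the MSC treatment groups between DNCB and control.

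**Figure D3:**
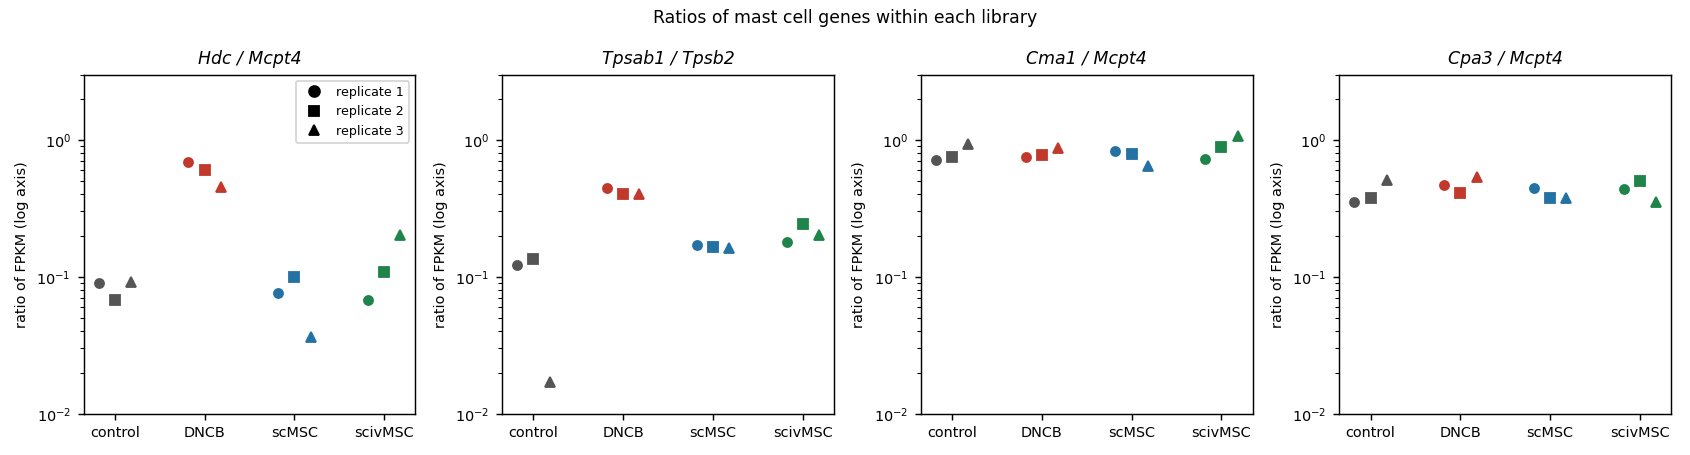
Ratios of FPKM between pairs of mast cell genes (vertical axes, logarithmic) in each library, with 1 panel per pair, libraries by group and marker shapes for replicate numbers. Hdc over Mcpt4 is 0.453 to 0.692 in DNCB and at most 0.202 elsewhere, and Tpsab1 over Tpsb2 is highest in DNCB, whereas Cma1 over Mcpt4 and Cpa3 over Mcpt4 overlap between all groups.

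The summed level of neutrophil genes, like Hdc, was highest in DNCB, as was the fibroblast sum given below. Of 18 listed, 17 were tested, and 15 were called higher in DNCB than in control and 1 (Mpo) lower, while 14 were called higher than in scMSC and 11 higher than in scivMSC, the last count being 7 without scivMSC replicate 3. Their summed level was 131 to 221 FPKM in control, 2651 to 3675 FPKM in DNCB, 19.7 to 70.8 FPKM in scMSC and 41.5 to 227 FPKM in scivMSC. The neutrophil surface genes Ly6g and Cxcr1 were at 0 in every control, scMSC and scivMSC library. Among the genes called, Retnlg, a secreted protein of neutrophils, rose over control by 9.27 on the log2 scale (adjusted p = 0.00134), and the neutrophil collagenase Mmp8 by 8.10 (adjusted p = 0.0059). In the control libraries Retnlg was at most 0.360 FPKM and Mmp8 at most 0.0445 FPKM. The control sum thus came almost wholly from other genes of the list. Outside DNCB the 2 patterns differed. In scMSC against control 2 neutrophil genes were called lower and the median log2 fold change of the list was −0.69, while Hdc differed by 0.68. In scivMSC against control 1 was called higher. Among the scivMSC libraries the neutrophil sum was lowest in replicate 1 (41.5 FPKM) and Hdc in replicate 3 (0.876 FPKM). The part of neutrophil RNA in the change of Hdc was not tested.

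Melanocyte genes changed with Kit. Of the 7 listed, 4 were called higher in DNCB than in control, 6 in scMSC and 5 in scivMSC (4 without scivMSC replicate 3), and their summed level was 13.5 to 33.5, 77.2 to 96.8, 129 to 339 and 117 to 175 FPKM in control, DNCB, scMSC and scivMSC. Tyrp1, an enzyme of pigment synthesis, was called in all 3 comparisons with control, at log2 fold changes of 2.00 (DNCB), 3.41 (scMSC) and 3.11 (scivMSC), and it was lower in DNCB than in scMSC, with a log2 fold change of −1.40 (adjusted p = 0.00701). Mitf, the factor of melanocytes and mast cells, was higher in scMSC than in control by 1.48 (adjusted p = 0.00203) and differed by 0.54 between scivMSC and control (adjusted p = 0.134). Kitl, which encodes stem cell factor, was higher in scMSC than in control by 1.10 (SE 0.22, adjusted p = 0.00758) and differed by 0.36 between DNCB and control (adjusted p = 0.27) and by 0.57 between scivMSC and control (adjusted p = 0.123). Genes of the hair shaft and inner root sheath were also highest in the MSC treatment groups, with sums of 3.45 to 308 FPKM in control, 289 to 903 FPKM in DNCB, 6321 to 17808 FPKM in scMSC and 2392 to 5854 FPKM in scivMSC. Of 7 tested, 1 was called higher in DNCB than in control by edgeR and 6 by limma, and 7 in scMSC and 4 in scivMSC were called higher than in control by edgeR. The part of melanocyte RNA and of hair follicle RNA in the level of Kit was not tested.

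Fibroblast and macrophage sums shared part of the layout of the protease sums. The 5 fibroblast genes summed to 174 to 253 FPKM in control, 1186 to 1484 FPKM in DNCB, 171 to 519 FPKM in scMSC and 88.8 to 642 FPKM in scivMSC, and 3 of 5 were called higher in DNCB than in control (4 without scivMSC replicate 3). Macrophage genes summed to 208 to 808, 738 to 806, 170 to 418 and 48.5 to 444 FPKM in the same order, and 0 of 8 were called in any comparison by edgeR. At an unadjusted p under 0.05 edgeR counted 0 of them in DNCB against control and 2 each in DNCB against scMSC and scivMSC, and DESeq2 called 2 in each of the latter. With scivMSC replicate 3 left out, edgeR called 3 in DNCB against scMSC. No fibroblast or macrophage gene of the lists was at 0 throughout a group. In both lists the highest scMSC library was replicate 1 and the lowest scivMSC library replicate 3, as for the proteases. Unlike its protease sum of 116 FPKM, which exceeded DNCB, the sums of scMSC replicate 1 (519 and 418 FPKM) lay below every DNCB library, and control replicate 3 had the highest macrophage sum of all, 808 FPKM, at a protease sum of 31.4 FPKM. Whether these cells had a part in the protease levels was not tested.

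**Figure D4:**
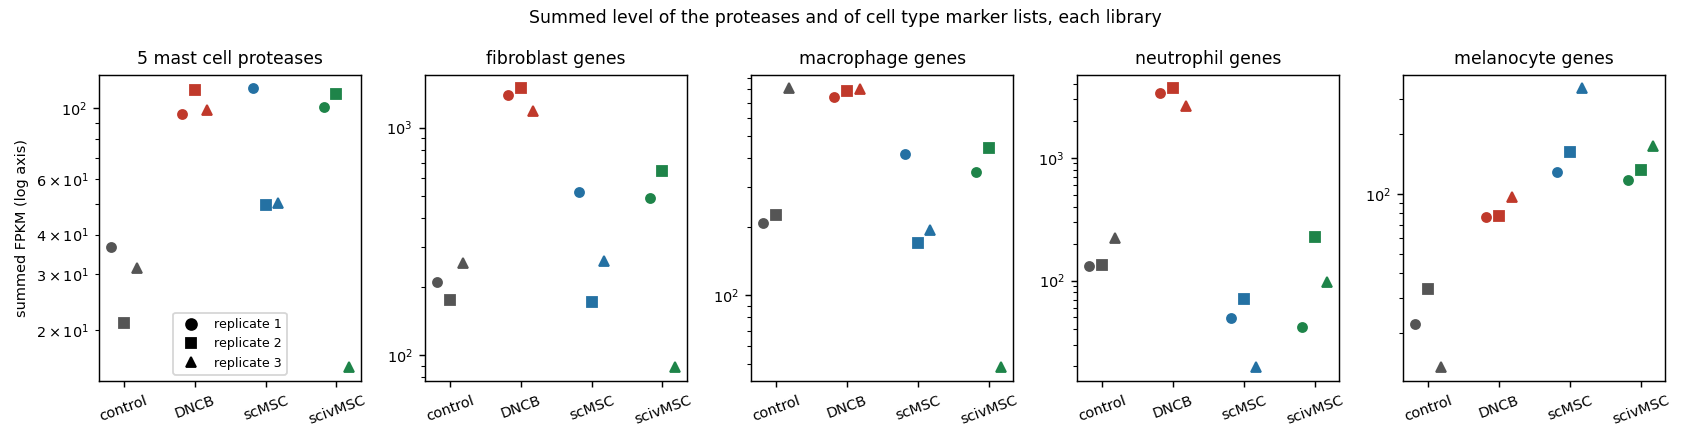
Summed FPKM (vertical axes, logarithmic) of the 5 mast cell proteases and of fibroblast, macrophage, neutrophil and melanocyte genes in each library by group, with marker shapes for replicate numbers. The scivMSC replicate 3 library is lowest for proteases (15.3 FPKM), fibroblast genes (88.8 FPKM) and macrophage genes (48.5 FPKM), and neutrophil genes are at 2651 to 3675 FPKM in DNCB and at most 227 FPKM elsewhere.

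Gata2 is also an endothelial gene but was not among the 8 endothelial genes listed. These 8 genes summed to 33.3 to 49.2 FPKM in control, 62.6 to 78.3 FPKM in DNCB, 28.3 to 53.3 FPKM in scMSC and 21.6 to 55.2 FPKM in scivMSC. Of 8 genes, 1 was called higher in DNCB than in control (Emcn, 1.09), 4 higher than in scMSC (Tie1 at 1.5 the largest) and 1 higher than in scivMSC (Cdh5, 1.17, and 0.86 with an adjusted p of 0.0711 without scivMSC replicate 3), whereas Gata2 itself passed no test. Basophils carry the IgE receptor too, and their genes summed to 2.74 to 5.23 FPKM in control, 5.78 to 6.96 FPKM in DNCB, 2.83 to 3.99 FPKM in scMSC and 2.26 to 5.89 FPKM in scivMSC, so that DNCB lay above every control and scMSC library. Itga2, an integrin gene of basophils and other cells, passed the adjusted p but not the fold limit in DNCB against control (0.87, adjusted p = 0.0204) and scMSC (0.82, adjusted p = 0.0437), with 0 of 2 tested genes called in any comparison by edgeR or DESeq2. At an unadjusted p under 0.05 edgeR counted both genes between DNCB and scMSC, 1 between DNCB and control and 1 between DNCB and scivMSC, and limma called 1 in DNCB against control. Only 2 of the 5 listed basophil genes reached the test filter, and Itga2 alone held 2.41 to 2.85 FPKM of the sums in DNCB. The basophil protease gene Mcpt8 was at most 0.0501 FPKM in any library, DNCB included, and at 0 in every scMSC library. Prss34, another basophil protease gene, was at 0 in every control library.

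Of the 15 other connective tissue mast cell genes tested, 3 were called higher and 1 lower in DNCB than in control, with a median log2 fold change of 0.72 against 0.02 over all genes. Srgn, the proteoglycan core that packs granules in mast cells and other leukocytes, was higher by 4.18 (adjusted p = 0.00034), and Il1rl1, the receptor for IL-33, by 3.27 (adjusted p = 0.00456). Mrgprb1, a receptor of the Mas-related family, was higher by 1.62 (adjusted p = 0.0402), and Ltc4s, the leukotriene C4 synthase, was lower, with a log2 fold change of −1.27 (adjusted p = 0.0414). In comparison with scMSC, Srgn was called higher in DNCB (3.95) and Mitf lower (−1.59), and in comparison with scivMSC Srgn alone was called (3.89, and 3.73 without scivMSC replicate 3). Higher than control were 3 of the 15 genes in scMSC and 0 in scivMSC, where 5.12% and 3.5% of all genes were called higher. Without scivMSC replicate 3 these counts were 5 and 4, and 0 were called lower than control in these fits. The genes Ctsg and Rgs13 were at 0 in all control libraries.

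Signalling genes downstream of the IgE receptor gave 5 of 16 called higher in DNCB than in control, 5 than in scMSC and 6 than in scivMSC, the last count being 3 without scivMSC replicate 3. Lcp2, an adaptor of the receptor pathway in many leukocytes, had log2 fold changes of 2.48, 2.99 and 2.95, and the kinase gene Lyn of 1.69, 2.18 and 2.04. Fcer1g, the gamma chain shared with the Fc receptors of neutrophils and macrophages, was 38.6 to 44.3 FPKM in DNCB, 5.16 to 17.0 FPKM in control, 4.21 to 9.14 FPKM in scMSC and 2.80 to 10.1 FPKM in scivMSC. All 3 chains of the IgE receptor were therefore measured, and the log2 fold changes between DNCB and scMSC were 2.69 in Fcer1g (adjusted p = 0.00847), 1.32 in Fcer1a (adjusted p = 0.178) and 1.33 in Ms4a2 (adjusted p = 0.334).

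Among the factors that act on mast cells, Il33, an alarmin of the epidermis, was higher in DNCB by 2.38 than in control, by 3.54 than in scMSC and by 2.95 than in scivMSC (adjusted p of 0.0133, 0.00495 and 0.0164). The last of these was 2.60 without scivMSC replicate 3 and lost its call (adjusted p = 0.0556). Tgfb1 exceeded control by 1.31 and scMSC by 1.13 in the DNCB mice. Of the 4 tested genes of histamine handling and histamine receptors, 0 were called between DNCB and control by edgeR's test, and 2 had an unadjusted p under 0.05, Slc18a2, the vesicular monoamine transporter (0.75, adjusted p = 0.0759), and Hrh2, a histamine receptor (1.41, adjusted p = 0.0817). Hrh2 was the gene that DESeq2 and limma called in that comparison (adjusted p of 0.0338 and 0.033), and edgeR, DESeq2 and limma called it higher in DNCB than in scMSC (2.53, adjusted p = 0.0149 in edgeR's test). Hnmt, a histamine-degrading enzyme, differed by −0.42 between DNCB and control (adjusted p = 0.453). Against control, Slc18a2 differed by 0.94 in scivMSC (adjusted p = 0.0506). In scMSC against control Slc18a2 was higher by 1.31 (adjusted p = 0.01) and Hnmt lower, with a log2 fold change of −1.18 (adjusted p = 0.0486).

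The genes whose pattern over the 12 libraries was most like the mean of the 5 proteases, among 14378 genes averaging 1 FPKM or more, were Ctsk, the cathepsin K gene (Pearson r = 0.972 on log2 of FPKM plus 0.1), and Arhgap31 (r = 0.962), followed by H2-M9, Lrrc8c, Creb3l2, Ripk1, Gmfb and Lamb1. Those most like Hdc were Arhgef7 (r = 0.981), Sri (r = 0.980) and Plaur, the urokinase receptor gene (r = 0.980), followed by Fxyd5, F10, Ifitm1, Dclk1 and Adam12. The 2 sets of 8 genes shared none. The 12 libraries of a correlation share their 4 groups, so these values describe a pattern and were not tested.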

How the data were processed

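Total RNA of dorsal skin from 12 mice, 3 in each of 4 groups named by the sample titles, was sequenced by the authors. The table deposited by the authors holds FPKM, which they scaled for the length of the gene and the size of the library, beside estimated counts in whole numbers without normalization. The submitters' processing notes name Bowtie 0.12.2, HISAT2 2.0, StringTie 1.3.0 and the build mm8, with no role for each, whereas its gene coordinates match GRCm38. Of 36400 gene identifiers, 36287 are in GENCODE M21.

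Those averaging 0.1 FPKM or more over the 12 libraries, 21890 in all, were tested by quasi-likelihood in edgeR 4.0.16 (R 4.3.3), with TMM factors (0.887 to 1.06) and 1 model of the 4 groups. The common biological coefficient of variation was 0.420. Standard errors were derived from the F statistic, and intervals are not adjusted. Calls needed an adjusted p (Benjamini-Hochberg) under 0.05 together with a log2 fold change over 1 in size. The floor was 3 fragments, or 12 estimated counts, and no member lay at or under it in all libraries of any group. Floors and intervals do not cover losses before sequencing. Ratios of Hdc to proteases were compared by exact permutation of log2(FPKM + 0.1).

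All 10 members are named in every comparison except scMSC against scivMSC, where most are given as a range. Of the other lists, the genes named were called, had a mean of at least 1 FPKM and were among the 4 with the largest fold change; Kitl, Slc18a2, Hnmt, Hrh2, Itga2, Mpo, Fcer1g and the markers at 0 were named beyond that rule, after their values were seen. The members and lists were chosen with earlier results of these data known. Lists of T cells, eosinophils, skeletal muscle, adipocytes and hair shaft with inner root sheath were also measured. In DNCB against control, 1 of 5 T cell genes was called higher, although the median log2 fold change of that list was −1.16. Of 3 eosinophil genes 1 was called higher, and 2 adipocyte and 4 muscle genes were called lower. In scMSC and in scivMSC 4 muscle genes were also called lower than in control. Muscle genes summed to 13312 to 19349 FPKM in control, 3528 to 5254 in DNCB, 3681 to 7911 in scMSC and 4004 to 9360 in scivMSC. The part of muscle RNA in the differences from control was not tested.

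Alternatives were DESeq2 1.42.0, limma 3.58.1 on log2(FPKM + 0.1) and log2(FPKM + 1), library size alone, RLE factors, no filter, a minimum of 1 FPKM, counts divided by 4, the 6 libraries compared alone, the replicate number as a block and leaving out each library. Of these steps, only the edgeR test was tried on simulated counts, for DNCB against control. Promoters are those of RefSeq on GRCm38.p6. Tables and figures used Python 3.11.15, pandas 2.3.3, numpy 2.4.6, scipy 1.17.1 and matplotlib 3.10.9.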

Additional observations from a re-analysis of the deposited data

How the results depend on the processing

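Each group was sequenced in 3 mice, and the precision of the low members Ms4a2 and Fcer1a is limited by few fragments. The same holds for Tpsab1 in control, where replicate 3 held 17 estimated counts. The number of members called in DNCB against control was 7 when the 6 libraries were fitted alone, 6 with DESeq2 and 4 in the shared model. It was 2 in DNCB against scMSC when those 6 libraries were fitted alone or no fold limit was set, and 1 in scivMSC against control when fitted alone. When 1 library was left out, the counts ran from 3 to 7 (DNCB against control), 1 to 3 (DNCB against scMSC), 0 to 1 (DNCB against scivMSC), 1 to 4 (scMSC against control) and 1 to 7 (scivMSC against control). Library size alone moved the median of all genes from 0.00 to 0.16 in scMSC against control and from 0.04 to 0.21 in scivMSC against control, and the genes called higher and lower from 1120 and 920 to 1477 and 670 and from 766 and 734 to 1134 and 566. The causes were not tested.

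The log2 ratio of Hdc to Tpsab1 between DNCB and control, −0.24, was 0.30 with 1 FPKM added and ran from −0.73 to 0.40 when 1 library was left out. The sign of the other 14 ratios did not change under any alternative run.

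Gata2 between DNCB and control turned positive under library size alone (0.10), limma with 0.1 or 1 FPKM added (0.091 and 0.046) and the replicate block (0.038), and ran from −0.52 to 0.27 when 1 library was left out. Between DNCB and scivMSC, leaving out 1 library gave −0.058 to 0.75 (Mcpt4), −0.073 to 0.80 (Cma1), −0.16 to 0.65 (Tpsb2) and −0.074 to 0.87 (Cpa3). Ms4a2 between scMSC and control ran from −1.77 to 0.063.

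Between scMSC and scivMSC, where no member was called, limma with 0.1 and 1 FPKM added gave 0.14 and 0.11 (Cma1), 0.25 and 0.20 (Tpsb2) and 0.26 and 0.14 (Cpa3), and the replicate block gave 0.028 (Tpsb2). Leaving out 1 library gave −0.46 to 0.37 (Mcpt4), −0.58 to 0.38 (Cma1), −0.56 to 0.26 (Tpsb2), −0.91 to 0.12 (Tpsab1), −0.68 to 0.30 (Cpa3), −0.84 to 1.00 (Ms4a2) and −0.88 to 0.12 (Hdc).

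Same-numbered libraries of different groups did not deviate together. Only 1 of 18 pairs had a correlation over 0.1 (range −0.21 to 0.149), and the closest match carried the same number for 2 of 12 libraries, so the numbers were not taken as a pairing. With the replicate block the members called remained 4, 1, 1, 3, 3 and 0 in number over the 6 comparisons, and Hdc differed by 4.02, 3.55 and 3.12 between DNCB and control, scMSC and scivMSC.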
